A study of Homo sapiens with 6 samples.

Results

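The genes described here are those of fatty acid activation, synthesis, oxidation and storage. They were taken from the array annotation as symbols that begin like the known families: acyl-CoA synthetases (ACSL, ACSS, ACSM), thioesterases (ACOT), carboxylases, elongases, desaturases, carnitine acyltransferases, enzymes of beta-oxidation, binding proteins, glycerolipid acyltransferases, perilipins and patatin-like lipases. Of 14884 named genes on the array, 82 matched, and each was read from its brightest transcript cluster (the set of probes for 1 transcribed region). The pattern also lists single symbols (FASN, THRSP, CRAT, CROT and LDAH). It holds no measured value, but earlier results of these data were known when it was written. Among the 82 symbols, 72 are protein-coding lipid genes and are the subject of the report. The other 10 are 6 G-patch proteins whose symbols begin with GPAT but which are not lipid enzymes, and 4 non-coding RNAs or pseudogenes. RefSeq holds 109 protein-coding symbols of the same families, and the 37 that the annotation does not name, ACADM, ACADVL, HADHA, HADHB, GPAM and ACSL3 among them, were not analysed here.

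Long-chain fatty acids are made from acetyl-CoA by acetyl-CoA carboxylase and fatty acid synthase, then lengthened by elongases and given double bonds by desaturases. To be used, a fatty acid is first joined to coenzyme A by an acyl-CoA synthetase, and a thioesterase undoes that step. Activated fatty acids are either carried into mitochondria as carnitine esters and oxidised, or built into triglyceride by glycerolipid enzymes and kept in lipid droplets, which perilipins coat and lipases empty.

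The samples were MDA-MB-468 cells, an established line of basal-like, triple-negative breast cancer. GapmeR#4, a modified antisense oligonucleotide against the long non-coding RNA NRAD1 (LINC00284), was given to 3 cultures, and a control GapmeR to another 3, each at 15 nM for 48 h with the transfection reagent TransIT-BrCa. All 6 are labelled as biological replicates, and they come from 1 cell line, 1 time point and 1 antisense sequence, so an effect of NRAD1 loss and an effect of this oligonucleotide cannot be told apart. Total RNA was hybridised to Affymetrix Human Gene 2.0 ST arrays, and values are log2 signals.

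NRAD1 gave 2.96, 2.99 and 2.90 in the GapmeR#4 arrays, against 3.43, 3.46 and 4.02 in the control arrays. No GapmeR#4 array reached the lowest control array (log2 change -0.69 ± 0.17 (SE, n = 3 arrays per group), limma adjusted p = 0.0908, exact permutation test p = 0.1, 2-sided, the smallest that 3 against 3 arrays allow), so the targeted RNA was lower without passing the threshold, and on 5 of 6 arrays its signal was below the array's median. Array medians were 3.96 to 4.005 with GapmeR#4 and 3.957 to 3.985 with control GapmeR. Pairs of arrays correlated at 0.988 to 0.989 within GapmeR#4, 0.988 to 0.99 within control and 0.982 to 0.985 between the groups. Of 16 markers listed as basal-like epithelial 9 were measured (EGFR, EPCAM, KRT5, KRT7, KRT8, KRT14, KRT16, KRT18 and KRT19). All were above the array median and none passed the threshold (lowest limma adjusted p 0.136). Their summed linear signal was 5640 to 6190 in GapmeR#4 arrays, against 6450 to 6810 in control arrays. EPCAM, a general epithelial gene, had a mean of 11.47 in both groups, against 6.76 with GapmeR#4 and 7.07 with control for KRT5. The sum therefore does not measure a basal-like state. Of 7 luminal hormone receptor markers 6 were measured, with 1 below the array median and none past the threshold. Signals above the median were therefore not particular to the basal-like list. The median is also a low bar, since only 4532 of 14884 named genes had a control mean below that of the control arrays. ESR1, counted as above it, had means of 3.85 with GapmeR#4 and 4.11 with control, close to the array medians. These counts do not show that a marker was expressed. Adipocyte markers summed to 116 to 139 with GapmeR#4 and 118 to 155 with control, with 3 of 6 measured markers below the array median and none past the threshold. The part of the lower epithelial marker sum in the results below was not tested.

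Promoters are shown for 4 of the lipid genes that passed the threshold: THRSP, which was lower, and CROT, ELOVL4 and PLIN2, which were higher, and in which the letters of a CCAAT box, an E-box or a TATA box were found. Each run holds the 250 bases before the annotated start, 5′ to 3′ on the gene's strand, from RefSeq (GRCh38.p14), and the capitals mark the CCAAT box, the E-box with the letters CACGTG and the TATA box with the letters TATAAA on either strand, so that ATTGG is a CCAAT box read from the opposite strand. The windows are chr11:78063611-78063860 on the plus strand for THRSP, chr7:87345414-87345663 on the plus strand for CROT, chr6:79947554-79947803 on the minus strand for ELOVL4 and chr9:19127493-19127742 on the minus strand for PLIN2.
THRSP promoter: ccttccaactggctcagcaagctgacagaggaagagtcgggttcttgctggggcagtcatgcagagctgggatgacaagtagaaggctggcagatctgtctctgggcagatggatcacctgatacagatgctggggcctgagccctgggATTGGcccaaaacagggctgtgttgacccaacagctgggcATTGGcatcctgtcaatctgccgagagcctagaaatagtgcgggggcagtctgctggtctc
CROT promoter: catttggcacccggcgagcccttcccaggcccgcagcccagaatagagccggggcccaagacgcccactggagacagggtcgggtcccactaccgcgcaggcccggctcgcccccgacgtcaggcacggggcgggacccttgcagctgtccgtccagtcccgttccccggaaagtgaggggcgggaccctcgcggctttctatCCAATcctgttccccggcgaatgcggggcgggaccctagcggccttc
ELOVL4 promoter: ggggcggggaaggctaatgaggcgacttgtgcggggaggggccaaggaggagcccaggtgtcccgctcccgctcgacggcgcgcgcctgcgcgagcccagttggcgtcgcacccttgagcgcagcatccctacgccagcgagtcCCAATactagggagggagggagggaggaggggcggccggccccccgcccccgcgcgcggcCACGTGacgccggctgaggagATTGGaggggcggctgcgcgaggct
PLIN2 promoter: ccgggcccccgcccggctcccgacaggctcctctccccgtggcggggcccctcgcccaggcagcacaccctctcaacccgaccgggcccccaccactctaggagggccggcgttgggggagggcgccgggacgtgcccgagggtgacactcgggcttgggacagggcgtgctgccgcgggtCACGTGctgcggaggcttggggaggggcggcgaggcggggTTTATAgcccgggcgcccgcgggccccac

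THRSP holds 2 CCAAT boxes, which begin 101 and 61 bases before the start. CROT has 1, at 47 bases, and ELOVL4 has 2, at 106 and 25 bases. An E-box, CACGTG, lies 46 bases before the start of ELOVL4 and 69 before that of PLIN2, and PLIN2 also has a TATA box at 29 bases. Across 35116 promoter windows of this length, CCAAT was present in 32%, CACGTG in 6.34% and TATAAA in 10.7%. The E-box was found in 2 of the 3 higher genes, in 0 of 4 lower genes with a window (CRAT had none) and in 3 of 52 lipid genes that did not pass the threshold, where a gene was counted if any of its windows held the letters. In the same 52 genes CCAAT was found in 25 and TATAAA in 2. GC boxes (GGGCGG), left in lower case, were present in 42.6% of windows, in all 3 higher genes, in ACOT13 and ACSL4 among the lower ones and in 39 of the 52 lipid genes not past the threshold. Neither the sterol regulatory element searched (TCACNCCAC, 0.883% of windows) nor the cyclic AMP response element (TGACGTCA, 1.65%) was present in the 7 genes past the threshold that had a window, and they were found in 5 and 2 of the other 52. These matches describe letters only.

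Of the 72 lipid genes, 5 fell and 3 rose after GapmeR#4 (limma, Benjamini-Hochberg adjusted p under 0.05 over all 53617 transcript clusters). The 5 that fell were THRSP, ACOT13, ACSL5, ACSL4 and CRAT, 6.94% of the lipid genes beside 2.56% of all named genes. The 3 that rose were CROT, PLIN2 and ELOVL4, 4.17% beside 1.49%. THRSP, CRAT and CROT are symbols that the pattern lists singly, and among the 68 lipid genes that match by family name 3 fell (4.41%) and 2 rose (2.94%), with a median log2 change of -0.103. Counted over all 82 matching symbols, 5 fell and 4 rose, the fourth being GPATCH4, a G-patch protein of the nucleolus (0.76, adjusted p = 0.0234). The changes were moderate, with the 8 lipid genes between 2.27-fold lower and 2.03-fold higher. None of the 13 lipid genes with a control mean below the median of the control arrays passed the threshold. The share of calls among the 4532 named genes this dim was not computed, and 13 genes are too few to read a dependence on signal from them.

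Most of the 72 genes did not pass the threshold, and more of their changes lay below 0 than above it. The median log2 change was -0.134, beside 0.00256 over all named genes, with 45 genes negative and 27 positive. Of all 14884 named genes, 7383 were negative and 7501 positive. In 22 genes (30.6%) all GapmeR#4 arrays lay below all control arrays, beside 16.8% of all named genes, and in 10 (13.9%) every GapmeR#4 array was above, beside 15.5%. In the remaining 40 the groups overlapped. On the log2 scale 21 genes were lower by more than 0.3 and 7 higher by more than 0.3, while 18 differed by less than 0.1. Of all named genes 34.5% differed by less than 0.1, and their shares beyond 0.3 were not computed. The plot of changes by role shows both the leaning to the left and the few genes that stand apart on either side.

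**Figure D1:**
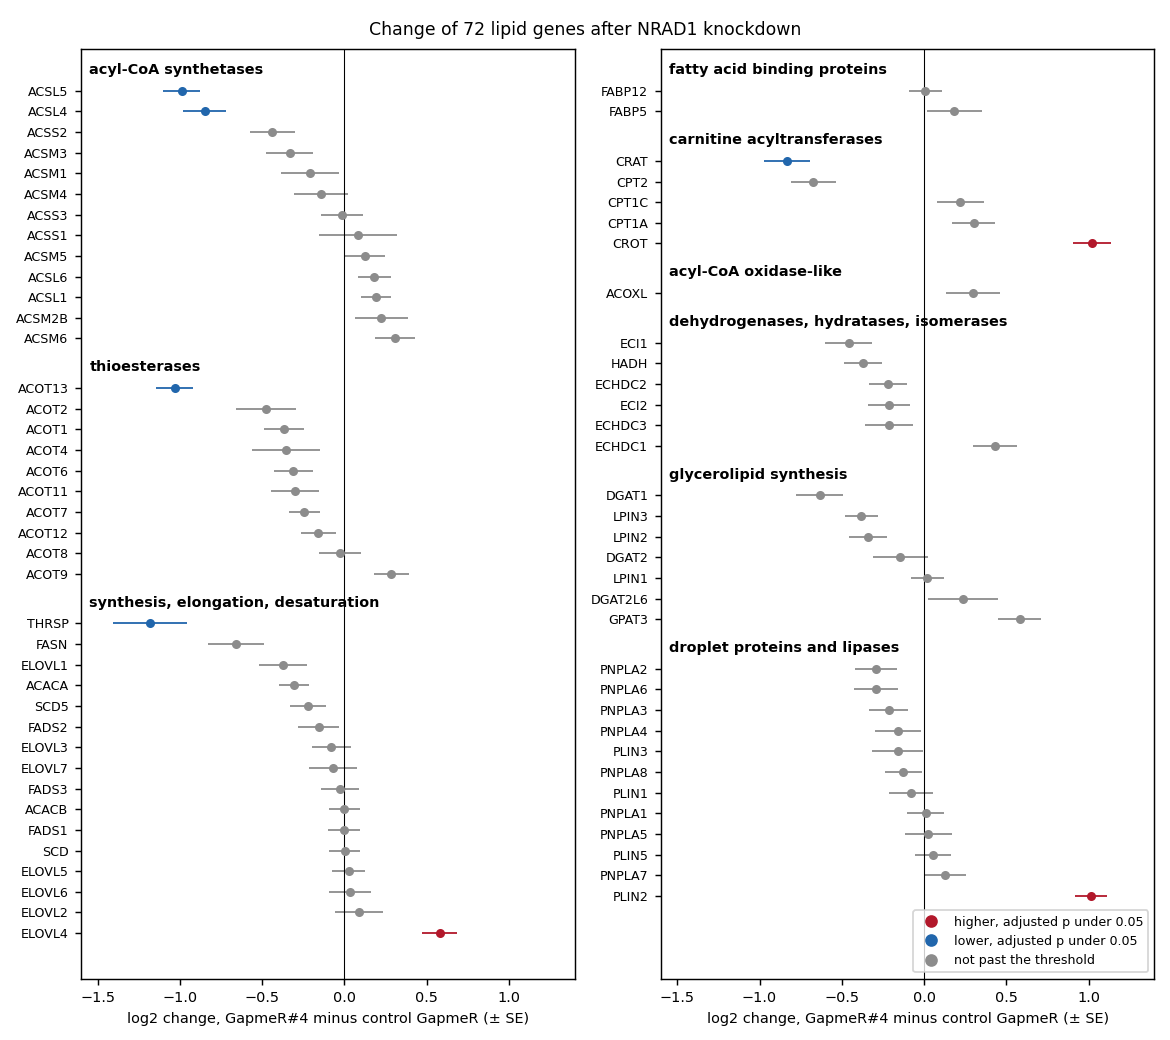
Log2 change (GapmeR#4 minus control GapmeR, horizontal axis) of each of the 72 lipid genes, grouped by role, with bars of 1 SE (n = 3 arrays per group). Coloured points passed the limma adjusted p of 0.05: 5 lower in blue, led by THRSP at -1.18, and 3 higher in red, led by CROT at 1.02.

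The control arrays did not contribute evenly to this leaning. Set against the control mean of each gene, the median of the 72 genes was -0.0961, -0.134 and -0.0825 in GapmeR#4 replicates 1 to 3, against 0.0538, -0.00425 and -0.0747 in control replicates 1 to 3. Control replicate 3 thus lay close to the GapmeR#4 arrays on this measure, with 47 of 72 genes below the control mean. Among the 22 genes whose groups separated downward, control replicate 1 was the highest control in 17 and control replicate 3 the lowest in 14. Over all 2496 named genes that separated downward, these shares were 45.6% and 49.2%. The median SD of the lipid genes was 0.115 with GapmeR#4 and 0.149 with control, beside 0.128 and 0.13 over all named genes.

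Among the 13 acyl-CoA synthetases, 2 fell and 0 rose, with a group median of -0.02. ACSL5, a synthetase for long-chain fatty acids on mitochondria and endoplasmic reticulum, gave 5.002, 5.001 and 4.81 in the GapmeR#4 arrays, against 5.84, 5.88 and 6.06 in the control arrays. ACSL4, which prefers arachidonic acid and other polyunsaturated fatty acids, gave 8.46, 8.30 and 8.09 in the GapmeR#4 arrays, against 9.02, 9.12 and 9.25 in the control arrays. In both genes all GapmeR#4 arrays were well below all control arrays. ACSL5 was 1.985-fold lower (log2 change -0.99 ± 0.11 (SE, n = 3 arrays per group), limma adjusted p = 0.0122), and its call was lost without GapmeR#4 replicate 3 (limma adjusted p = 0.0548) or control replicate 2 (0.0658). ACSL4 was 1.80-fold lower (log2 change -0.85 ± 0.13 (SE, n = 3 arrays per group), limma adjusted p = 0.0267), and its call held only when GapmeR#4 replicate 1 was left out (limma adjusted p = 0.0481), with 0.0718 to 0.107 for the other 5 arrays.

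ACSL1, another long-chain synthetase, had values on the other side without passing the threshold. It gave 9.32, 9.36 and 9.37 in the GapmeR#4 arrays, against 9.16, 9.13 and 9.18 in the control arrays, and the groups did not overlap (log2 change 0.19, adjusted p = 0.346, limma). ACSS2, which makes acetyl-CoA from acetate in cytosol and nucleus, had GapmeR#4 arrays below all control arrays (log2 change -0.44, adjusted p = 0.16). The mitochondrial acetate enzyme ACSS1 (log2 change 0.08, adjusted p = 0.908) and ACSS3 (-0.02, adjusted p = 0.97) had overlapping groups. The ACSM genes, medium-chain synthetases, ranged from -0.33 for ACSM3 to 0.31 for ACSM6 on the log2 scale. Of the 13 synthetases, 6 had a control mean below the array median.

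The 10 acyl-CoA thioesterases, which release free fatty acid from coenzyme A, had the most one-sided values of the larger role groups, with 9 negative changes and a median of -0.31. Only ACOT13 passed the threshold. ACOT13, a small thioesterase for long-chain acyl-CoA that associates with mitochondria, gave 8.89, 8.80 and 8.58 in the GapmeR#4 arrays, against 9.78, 9.84 and 9.74 in the control arrays. The lowest control array was 0.85 log2 units above the highest GapmeR#4 array, and the fall was 2.04-fold (log2 change -1.03 ± 0.11 (SE, n = 3 arrays per group), limma adjusted p = 0.0119). Among the fits with 1 array left out, the call of ACOT13 was lost only without control replicate 2 (limma adjusted p = 0.0678). It was also lost with the replicate numbers as a block (limma adjusted p = 0.0553) and in the plain 2-group comparison, both described below.

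Behind ACOT13 followed ACOT2 (log2 change -0.48, adjusted p = 0.241), ACOT1 (-0.37, adjusted p = 0.182), ACOT4 (-0.35, adjusted p = 0.461) and ACOT6 (-0.31, adjusted p = 0.246), none of which passed the limma test. A second, dimmer transcript cluster of ACOT6 lay on the other side of 0 with overlapping groups (log2 change 0.11, adjusted p = 0.751). These 4 genes lie together on chromosome 14 and are close copies of each other, so their probes may share signal and they cannot be counted as separate observations. ACOT9, a mitochondrial thioesterase, was the positive exception (log2 change 0.29, adjusted p = 0.241), with all its GapmeR#4 arrays above all control arrays. The peroxisomal ACOT8 had overlapping groups and a log2 change of -0.03. Of the fatty acid binding proteins, which carry fatty acids in the cytosol, FABP5 gave a log2 change of 0.18, adjusted p = 0.655, and FABP12 was below the array median in both groups. FABP5 has a pseudogene on the array, FABP5P3, that may share its probes' signal.

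In the 16 genes of synthesis, elongation and desaturation, 1 fell and 1 rose, and the median was -0.05. THRSP, a nuclear protein that responds to thyroid hormone and promotes lipogenesis, gave 4.16, 4.27 and 3.53 in the GapmeR#4 arrays, against 5.47, 5.12 and 4.92 in the control arrays. It had the lowest log2 change of the 72 genes and also wide spread, with GapmeR#4 replicate 3 far below the other arrays of its group. Its GapmeR#4 mean, 3.99, was at the level of the GapmeR#4 array medians (3.96 to 4.005). The fall was 2.27-fold (log2 change -1.18 ± 0.23 (SE, n = 3 arrays per group), limma adjusted p = 0.0469), the 95% interval of the log2 change ran from -1.71 to -0.65, and the call was lost whichever array was left out (limma adjusted p = 0.0757 to 0.144). It was also lost with quantile normalization (0.053) or with arrays centred on their medians (0.0516).

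Fatty acid synthase and acetyl-CoA carboxylase had lower values in every GapmeR#4 array and did not pass the threshold. FASN, which builds palmitate, gave 8.81, 8.97 and 8.95 in the GapmeR#4 arrays, against 9.89, 9.58 and 9.24 in the control arrays. Here the control arrays were spread over 0.655 log2 units while the GapmeR#4 arrays were close together (log2 change -0.66 ± 0.17 (SE, n = 3 arrays per group), limma adjusted p = 0.104, 95% interval -1.06 to -0.26). ACACA, the cytosolic carboxylase that supplies malonyl-CoA, gave 7.46, 7.46 and 7.42 in the GapmeR#4 arrays, against 7.76, 7.78 and 7.72 in the control arrays. Its change was smaller and its spread narrow (log2 change -0.31 ± 0.09 (SE, n = 3 arrays per group), limma adjusted p = 0.143). ACACB, the carboxylase of the mitochondrial surface, had a log2 change of -0.00055 with a 95% interval of -0.225 to 0.2235.

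All 5 desaturases measured (SCD, SCD5, FADS1, FADS2 and FADS3) had overlapping groups. SCD, the delta-9 desaturase that makes oleate, gave 12.16, 12.16 and 12.10 in the GapmeR#4 arrays, against 12.14, 12.19 and 12.08 in the control arrays. The 95% interval of the log2 change, -0.218 to 0.222, leaves room for a modest change in either direction (limma adjusted p = 0.995). A second, dimmer transcript cluster of SCD gave a log2 change of 0.10 (adjusted p = 0.707). FADS1 and FADS2, the delta-5 and delta-6 desaturases of polyunsaturated fatty acids, had log2 changes of -0.00025 (adjusted p = 0.999) and -0.16, adjusted p = 0.6.

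The elongases, which add carbon pairs to the acyl chain, ran from -0.37 for ELOVL1 to 0.58 for ELOVL4. ELOVL4, which makes very-long-chain fatty acids, gave 8.65, 8.46 and 8.57 in the GapmeR#4 arrays, against 7.94, 7.91 and 8.09 in the control arrays. All GapmeR#4 arrays lay above all control arrays, and the gene was 1.49-fold higher (log2 change 0.58 ± 0.11 (SE, n = 3 arrays per group), limma adjusted p = 0.0431), but the call was lost whichever array was left out (limma adjusted p = 0.0698 to 0.16). ELOVL6, the elongase of palmitate, had overlapping groups (log2 change 0.03, adjusted p = 0.936), as had ELOVL5 (log2 change 0.03, adjusted p = 0.938).

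**Figure D2:**
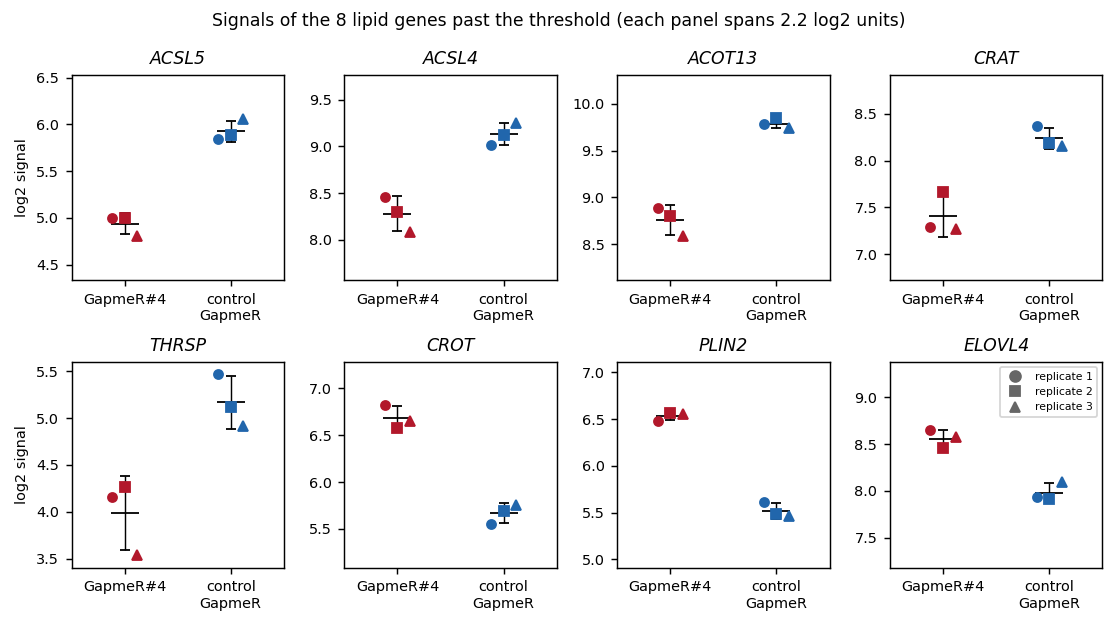
Log2 signal (vertical axis) of the 8 lipid genes past the threshold in the 3 GapmeR#4 arrays (left, red) and the 3 control GapmeR arrays (right, blue), with marker shapes for the replicates and black bars for mean ± SD. No panel has overlapping groups, and THRSP has the widest spread, with GapmeR#4 replicate 3 at 3.53.

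The 5 carnitine acyltransferases, which move acyl groups between coenzyme A and carnitine, split in both directions. CRAT, which handles acetyl and other short groups mainly in mitochondria, gave 7.29, 7.67 and 7.27 in the GapmeR#4 arrays, against 8.37, 8.19 and 8.16 in the control arrays. It was 1.78-fold lower (log2 change -0.83 ± 0.14 (SE, n = 3 arrays per group), limma adjusted p = 0.0335), and the call held only when GapmeR#4 replicate 2, the highest of its group, was left out (limma adjusted p = 0.0455). With any other array left out the adjusted p was 0.0733 to 0.118.

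CROT, the peroxisomal enzyme that moves medium-chain groups to carnitine, gave 6.82, 6.58 and 6.66 in the GapmeR#4 arrays, against 5.55, 5.70 and 5.76 in the control arrays. The lowest GapmeR#4 array was 0.82 log2 units above the highest control array, and the rise was 2.03-fold (log2 change 1.02 ± 0.11 (SE, n = 3 arrays per group), limma adjusted p = 0.0121). Its call was lost without GapmeR#4 replicate 3 (limma adjusted p = 0.0548) or control replicate 2 (0.0649). CRAT and CROT, related in sequence and chemistry, thus passed the threshold in opposite directions.

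The mitochondrial import pair also lay on opposite sides of 0, but neither enzyme passed the threshold. CPT1A, the outer-membrane enzyme that makes long-chain acylcarnitine and is inhibited by malonyl-CoA, gave 8.57, 8.81 and 8.63 in the GapmeR#4 arrays, against 8.57, 8.34 and 8.20 in the control arrays. The highest control array nearly reached the lowest GapmeR#4 array (log2 change 0.30 ± 0.13 (SE, n = 3 arrays per group), limma adjusted p = 0.305). CPT2, the inner-membrane enzyme that returns the acyl group to coenzyme A, gave 7.16, 7.23 and 7.20 in the GapmeR#4 arrays, against 8.13, 7.83 and 7.66 in the control arrays. It came closest to the threshold of the lipid genes not called (log2 change -0.67 ± 0.14 (SE, n = 3 arrays per group), limma adjusted p = 0.055, 95% interval -0.994 to -0.351), and control replicate 3 was again the lowest control. Among the brighter 50% of transcript clusters alone, where fewer tests were made, CPT2 passed (limma adjusted p = 0.0235). A second transcript cluster of CPT2, also lower in every GapmeR#4 array, had a log2 change of -0.38 (limma adjusted p = 0.165). CPT1C, the brain form, had overlapping groups (log2 change 0.22, adjusted p = 0.51).

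In the group of hydratases, isomerases and dehydrogenases 6 genes were measured: ECHDC1, ECHDC2, ECHDC3, ECI1, ECI2 and HADH. No acyl-CoA dehydrogenase of the ACAD family was among them. Of the 6 genes 0 passed the threshold, and 5 of 6 changes were negative with a median of -0.22. ECI1, the mitochondrial isomerase that prepares unsaturated chains for oxidation, had a log2 change of -0.46, adjusted p = 0.159 (limma). HADH, the hydroxyacyl-CoA dehydrogenase for medium and short chains, had a log2 change of -0.37, adjusted p = 0.163. Both were below control in every GapmeR#4 array. ECHDC1, which removes ethylmalonyl-CoA, a side product of acetyl-CoA carboxylase, lay above control in every GapmeR#4 array (log2 change 0.43, adjusted p = 0.153). ACOXL, an acyl-CoA oxidase-like gene, was dim and its groups overlapped (log2 change 0.30, adjusted p = 0.429).

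**Figure D3:**
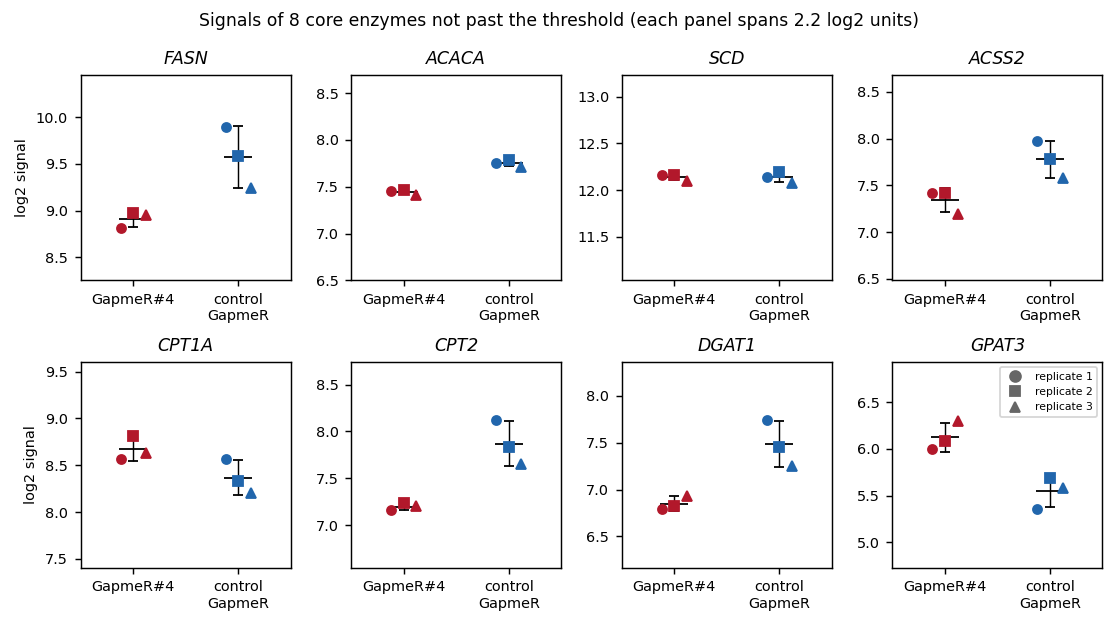
Log2 signal (vertical axis) of 8 core enzymes not past the threshold in the 3 GapmeR#4 arrays (left, red) and the 3 control GapmeR arrays (right, blue), with marker shapes for the replicates and black bars for mean ± SD. FASN, ACACA, ACSS2, CPT2 and DGAT1 have GapmeR#4 arrays below all controls, CPT1A and GPAT3 above all controls, and SCD overlaps at about 12.1.

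The 7 genes of glycerolipid synthesis had 0 past the threshold and a median of -0.15. DGAT1, which adds the last acyl chain of triglyceride, gave 6.79, 6.82 and 6.94 in the GapmeR#4 arrays, against 7.74, 7.46 and 7.26 in the control arrays. GPAT3, which adds the first acyl chain to glycerol-3-phosphate, gave 5.996, 6.08 and 6.30 in the GapmeR#4 arrays, against 5.36, 5.69 and 5.59 in the control arrays. No other enzyme of this first step was measured. DGAT1 and GPAT3 had values on opposite sides of 0, each without overlap, and neither passed the threshold (log2 change -0.63, adjusted p = 0.07 for DGAT1 and 0.58, adjusted p = 0.0746 for GPAT3, limma). Both passed among the brighter 50% of transcript clusters alone (limma adjusted p = 0.0306 for DGAT1 and 0.0326 for GPAT3). DGAT2, the second enzyme for the last step, had overlapping groups (log2 change -0.15, adjusted p = 0.742). Of the lipins, phosphatidate phosphatases between these steps, LPIN3 (-0.38, adjusted p = 0.106) and LPIN2 (-0.34, adjusted p = 0.186) were below control in every GapmeR#4 array, and LPIN1 overlapped between the groups at 0.02.

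Among the 12 droplet proteins and patatin-like lipases, 1 rose and 0 fell, and the median was -0.10. PLIN2, the perilipin that coats droplets in most cell types, gave 6.48, 6.56 and 6.56 in the GapmeR#4 arrays, against 5.61, 5.48 and 5.46 in the control arrays. Both groups were tight, all GapmeR#4 arrays lay at least 0.87 log2 units above all control arrays, and the rise was 2.02-fold (log2 change 1.01 ± 0.10 (SE, n = 3 arrays per group), limma adjusted p = 0.00832), with the lowest adjusted p of the 72 genes. Among the fits with 1 array left out, the call of PLIN2 was lost only without control replicate 2 (limma adjusted p = 0.0559). It was also lost with the replicate numbers as a block (limma adjusted p = 0.0553) and in the plain 2-group comparison, both described below.

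The other 3 perilipins measured did not pass the threshold. PLIN3, the other widely expressed member, had a log2 change of -0.16, adjusted p = 0.686 (limma), PLIN5, the form of oxidative tissues, one of 0.05, adjusted p = 0.867, and PLIN1, the adipocyte form, one of -0.08, adjusted p = 0.825. In all 3 the groups overlapped. PNPLA2, the lipase that begins triglyceride breakdown, lay below control in every GapmeR#4 array (log2 change -0.29, adjusted p = 0.309), and its second, dimmer transcript cluster overlapped between the groups. PNPLA6, a lysophospholipase, was likewise below control in every array (-0.29, adjusted p = 0.326).

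Transcript clusters for a further pair of lipid genes, LDAH and ACADSB, carry a name only in the study's own list of regulated genes, which was selected on these arrays. They were not counted above and are given as a description with no test. LDAH, a hydrolase of lipid droplets, gave 4.67, 4.79 and 3.77 in the GapmeR#4 arrays, against 6.30, 6.22 and 6.26 in the control arrays, with GapmeR#4 replicate 3 well below the rest of its group. ACADSB, the mitochondrial dehydrogenase of short branched chains, gave 4.81, 4.90 and 4.55 in the GapmeR#4 arrays, against 5.86, 5.51 and 5.64 in the control arrays.

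Genes that act beside these families were read from 4 lists of 111 symbols, of which 60 were measured. In the same limma fit 2 fell and 1 rose, with a median of -0.09, and 57 did not pass the threshold. The shares, 3.33% lower and 1.67% higher, were close to the 2.56% and 1.49% of all named genes. PPARD, a nuclear receptor for fatty acids that turns on oxidation genes, was 1 of 13 regulators to fall and gave 7.91, 7.94 and 7.95 in the GapmeR#4 arrays, against 8.76, 8.53 and 8.52 in the control arrays (log2 change -0.67 ± 0.11 (SE, n = 3 arrays per group), limma adjusted p = 0.0311). Its call was lost whichever array was left out (limma adjusted p = 0.0652 to 0.105). The other regulators named for their role did not pass: SREBF1, the driver of lipogenic genes, had a log2 change of -0.26, adjusted p = 0.273, PPARA, the receptor of liver oxidation, one of -0.40, adjusted p = 0.186, and PPARG, the adipocyte receptor, one of 0.34, adjusted p = 0.245. Over the 13 regulators the median log2 change was -0.26.

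In the 10 genes of fatty acid uptake and acetyl-CoA supply, VLDLR, which takes up triglyceride-rich lipoproteins, fell. It gave 7.80, 7.79 and 7.48 in the GapmeR#4 arrays, against 8.32, 8.33 and 8.37 in the control arrays (log2 change -0.65 ± 0.12 (SE, n = 3 arrays per group), limma adjusted p = 0.0414), and the call was lost whichever array was left out (limma adjusted p = 0.0891 to 0.143). The groups were clearly apart, with GapmeR#4 replicate 3 the lowest array. ACLY, which makes cytosolic acetyl-CoA from citrate, had a log2 change of -0.32, adjusted p = 0.287 (limma), and the fatty acid transporter CD36 one of -0.29, adjusted p = 0.493.

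MGLL, the lipase that completes triglyceride breakdown by splitting monoglycerides, was the 1 of 22 further storage and lipolysis genes to rise, and 0 fell. It gave 5.86, 6.08 and 6.29 in the GapmeR#4 arrays, against 5.42, 5.24 and 5.08 in the control arrays (log2 change 0.83 ± 0.15 (SE, n = 3 arrays per group), limma adjusted p = 0.0394), again with no call once any array was left out (limma adjusted p = 0.0611 to 0.139). Its groups did not overlap, and the spread in each was wider than for PLIN2. Over the 22 storage and lipolysis genes the median was 0.04, with 13 positive and 9 negative changes. In 4 of them (18.2%) every GapmeR#4 array was above every control array, and in 1 (4.55%) below. Of 15 other oxidation enzymes 0 passed the threshold, with a median of -0.13 and 6 genes (40%) below control in every GapmeR#4 array. Over all named genes these shares were 15.5% above and 16.8% below.

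How firmly the 8 lipid genes passed differed, as the plot of adjusted p by setting shows. All 8 kept their direction in every setting. Without control replicate 2 none of the 8 passed, while without another single array between 2 and 5 of the 9 called symbols (GPATCH4 included) did. With the methods' t-test, the plain 2-group comparison, none passed after Benjamini-Hochberg adjustment, with adjusted p between 0.0598 and 0.188. None passed either with the replicate numbers as a block, a setting not plotted (limma adjusted p between 0.0553 and 0.123). By a rule of more than 1.7-fold and an unadjusted limma p under 0.05, 5 lipid genes fell and 2 rose, ELOVL4 being the one left out.

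**Figure D4:**
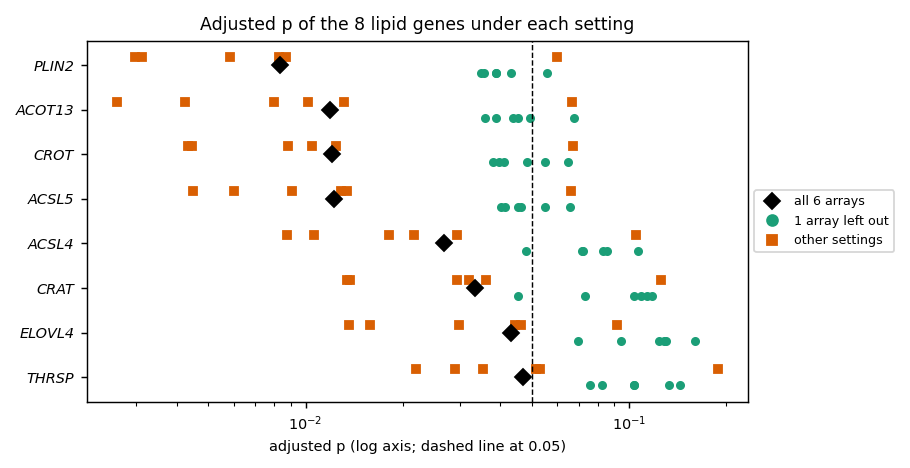
Adjusted p (horizontal log axis) of the 8 lipid genes past the threshold with all 6 arrays (black diamonds), with 1 array left out (green circles) and in other settings of filter, variance model, test, normalization, centring and weights (orange squares), with a dashed line at 0.05. PLIN2 and ACOT13 cross the line in 1 of 6 fits with an array left out, while ELOVL4 and THRSP cross it in all 6. The fit with the replicate block, in which none of the 8 passed, is not plotted.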

How the data were processed

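RNA of MDA-MB-468 cells (3 GapmeR#4, 3 control GapmeR, 15 nM, 48 h) was hybridised to Affymetrix Human Gene 2.0 ST arrays. The deposited values are log2 signals of 53617 transcript clusters that the authors made with Affymetrix Expression Console; for its version, its normalization and the annotation's genome build, the sources used here give nothing. Signals were used as deposited. A 2-group linear model with moderated variances (limma 3.58.1 under R 4.3.3, 2-sided) was fitted to every transcript cluster without a filter, and Benjamini-Hochberg adjustment ran over the whole table. A change is GapmeR#4 minus control GapmeR on the log2 scale. Each gene was counted once, by its brightest transcript cluster; 16098 transcript clusters carry 1 symbol and 37519 none. The script was tested on simulated data. The number of arrays limits the precision, and probe signals do not compare levels between genes.

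Samples were grouped by the submitters' labels. Members and lists were chosen with earlier results of these data known. Named were NRAD1, every member past the threshold, the 3 members of each role group with the smallest limma p, 24 core genes (7 of them not named on the array) and the companion genes past the threshold with 5 fixed ones. Other genes in the text, among them LDAH, ACADSB, ACOT2, ACOT4, ACOT6, the CPT1C, PLIN1, PLIN5, LPIN and ELOVL genes, the ACSS and ACSM genes and ACOT8, were chosen after their values were seen. Columns of the authors' comparisons were not used.

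Promoters came from RefSeq (GRCh38.p14), with a window for 59 of 72 lipid genes. They were searched on both strands, in the 250 bases before the start, for the letters given. Alternatives were the brighter 50% of transcript clusters, an intensity trend with robust prior, the methods' t-test, quantile normalization, median centring, array weights, the replicate block, leaving out each array, averaging a symbol's transcript clusters, a 1.7-fold rule and other choices of members.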

Additional observations from a re-analysis of the deposited data

How the results depend on the processing

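Over all 82 matching symbols, 5 fell and 4 rose, with a median log2 change of -0.0743. The count that fell was 8 among the brighter 50% of transcript clusters, where fewer tests were made, 0 with the methods' t-test, 0 to 3 with 1 array left out (0 without control replicate 2) and 3 without the symbols that the pattern lists singly, a choice made after seeing the data. The count that rose was 0 with the methods' t-test, 0 to 2 with 1 array left out and 2 by the rule of more than 1.7-fold and an unadjusted limma p under 0.05. The median was -0.134 for the protein-coding lipid genes and -0.161 for those with a control mean at or above the array median, both sets chosen after seeing the data. In the other settings it ran from -0.0411 (without control replicate 2) to -0.115 (brighter 50%), and it was -0.106 without control replicate 3. The replicate numbers were not found to pair the arrays (correlations of same-numbered deviations -0.0645, -0.00476 and -0.0179). With the replicate block, 0 members fell and 0 rose, beside 17 and 9 of all named genes, and the 9 called members had limma adjusted p between 0.0553 and 0.123. Of 491 alternative values of single members, 409 kept direction and side of the threshold, 54 lost the call, 9 gained it (CPT2, DGAT1, GPAT3 or LPIN3, with the brighter 50%, the intensity trend or array weights) and 19 changed sign, none of them of a called member; these were DGAT2 (-0.145 with all arrays) without GapmeR#4 replicate 1, and otherwise members within 0.1 of 0. Quantile normalization gave 0.0221 for ACACB, -0.00541 for ELOVL6, -0.0309 for FABP12, 0.0179 for FADS1 and -0.00134 for SCD; median centring gave -0.00409 for SCD, and array weights -0.00839 for FABP12 and -0.0146 for SCD. With 1 array left out the log2 change ran from -0.0398 to 0.0248 for ACACB, -0.237 to 0.0205 for DGAT2, -0.0575 to 0.143 for ELOVL6, -0.0438 to 0.038 for FABP12, -0.0384 to 0.0432 for FADS1 and -0.0276 to 0.0279 for SCD. The cause of these differences was not tested. NRAD1 has no value in the brighter 50%, since it was below that filter. Among the 9 called members, the smallest change with 3 arrays per group was 0.58 on the log2 scale (ELOVL4), which is not a detection limit of the design.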
